A study of Mus musculus with 121 samples.

Results

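Gonadal adipose tissue of chow-fed mice was compared between knockout (KO) and heterozygous (HET) animals by RNA sequencing. The libraries were those labelled gonadal, chow and KO, 5 in number, and gonadal, chow and HET, 8 in number. They make up 13 of the 45 gonadal libraries with a column of counts and 13 of 120 such samples in the series, which also covers liver and other diets. The gene is written PEP in the labels and is read here as Pepd, as known of this study. The allele, the part of the gene that was removed, the cells in which it was removed and the sex of the mice are not given in the labels. KO and HET mice were C57BL/6, were put on chow with 10% of calories from lipid at 8 weeks of age and were fed it for 18 weeks. Gonadal tissue of KO (n = 9) and HET (n = 11) mice on a high-fat diet (HFD), and of wild-type (WT) mice on chow (n = 4), is given beside these groups where a difference between comparisons was tested. The HFD and WT mice have the same age at diet start and the same feeding time in the labels. Each library is from a mouse with its own number.

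Pepd encodes prolidase, a peptidase that frees proline or hydroxyproline from the end of a dipeptide, the last step in breaking down collagen. Its loss in people causes prolidase deficiency, with skin ulcers and recurrent infections. Gonadal fat is a visceral depot that lies against the epididymis in male mice and is made of lipid-filled adipocytes, fibroblast-like progenitors, vessels, a mesothelial cover and resident immune cells. Adipocytes take up fatty acids through lipoprotein lipase, make and store triglyceride under the control of the nuclear receptor PPARγ, and secrete leptin and other adipokines. In inflamed fat, macrophages, neutrophils and lymphocytes increase and the lipid-making programme of adipocytes is lowered.

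The 13 libraries held 4236655 to 6583398 counted reads, so that a single read was worth 0.135 to 0.21 CPM (counts scaled to a fixed library total). A set of 38 genes of the epididymis summed to 19500 CPM in KO library 1 and to 22000 CPM in HET library 2, against 4.3 to 13.7 CPM in the other 4 KO libraries and 4.89 to 111 CPM in the other 7 HET libraries. These 2 libraries therefore hold epididymis RNA, and the comparison was made with and without them. Of those 38 genes, 29 could be tested and 0 passed the test between genotypes (edgeR quasi-likelihood with Benjamini-Hochberg adjustment; unadjusted, 1 had a p under 0.05, and DESeq2 called 0), while 3 had no read in either genotype. Genes of the testis summed to 169 CPM in KO library 1, and to 523 CPM in HET library 2 and 248 CPM in HET library 5. The mouse numbers in the labels form separate runs, under 450 (KO 1, 2 and 3, HET 1 to 5) and above 450 (KO 4 and 5, HET 6, 7 and 8). The labels do not say what sets the runs apart. Hepatocyte genes summed to 1360 to 4910 CPM in KO and 1400 to 6350 CPM in HET libraries, and 0 of 13 tested passed by edgeR (unadjusted, 0 had a p under 0.05, and DESeq2 called 0). Genes of adipocyte identity were present in every library, summing to 11200 to 72200 CPM in KO and 40500 to 82900 CPM in HET.

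Several results below concern genes controlled by interferon or by C/EBP factors, so the bases upstream of 5 of them are shown, as RefSeq sequence of the build GRCm38.p6. Each is the 250 bases before the gene's start, written in the gene's own direction. Capitals mark matches to GAAA, any 2 bases and GAAA, the interferon-stimulated response element (ISRE), in Isg15, Ifit1 and Stat2, and to TTGCNNAA, a C/EBP motif, in Saa3 and Lep, on either strand. Isg15 encodes a ubiquitin-like modifier and Ifit1 a protein that binds viral RNA, and Stat2 is part of the factor that binds the ISRE. Isg15, Ifit1 and Lep were chosen after their values were seen. None of the marked matches overlapped another motif searched.
Isg15: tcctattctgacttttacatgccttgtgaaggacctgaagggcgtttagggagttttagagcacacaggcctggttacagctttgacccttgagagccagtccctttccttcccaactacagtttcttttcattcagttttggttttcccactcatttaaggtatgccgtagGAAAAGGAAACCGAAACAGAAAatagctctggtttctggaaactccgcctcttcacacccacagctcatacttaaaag
Ifit1: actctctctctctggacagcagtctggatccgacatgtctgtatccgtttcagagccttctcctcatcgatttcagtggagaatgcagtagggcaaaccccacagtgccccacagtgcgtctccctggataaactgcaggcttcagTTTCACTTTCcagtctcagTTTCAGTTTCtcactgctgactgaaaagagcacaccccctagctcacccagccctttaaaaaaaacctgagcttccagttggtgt
Stat2: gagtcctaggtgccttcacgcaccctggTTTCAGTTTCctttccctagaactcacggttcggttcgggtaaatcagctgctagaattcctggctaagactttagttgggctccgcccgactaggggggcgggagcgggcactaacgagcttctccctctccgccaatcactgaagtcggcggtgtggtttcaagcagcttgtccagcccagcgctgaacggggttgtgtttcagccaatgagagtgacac
Saa3: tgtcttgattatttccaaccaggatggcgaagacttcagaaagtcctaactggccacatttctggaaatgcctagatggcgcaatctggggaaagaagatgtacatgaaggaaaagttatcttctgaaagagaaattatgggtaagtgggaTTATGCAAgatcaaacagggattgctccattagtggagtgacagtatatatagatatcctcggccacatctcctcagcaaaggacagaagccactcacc
Lep: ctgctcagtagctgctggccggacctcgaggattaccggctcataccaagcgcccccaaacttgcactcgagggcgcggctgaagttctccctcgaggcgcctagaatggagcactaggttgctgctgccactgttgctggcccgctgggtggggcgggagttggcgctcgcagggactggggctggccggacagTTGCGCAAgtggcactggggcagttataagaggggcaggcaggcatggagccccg
In Isg15 (chr4:156200819-156201068, minus strand) 3 overlapping ISRE matches began 78, 72 and 66 bases before the gene's start. In Ifit1 (chr19:34640639-34640888, plus strand) 2 matches lay at 104 and 85 bases, and in Stat2 (chr10:128270248-128270497, plus strand) 1 lay at 222 bases, all on the strand opposite to the gene. The C/EBP match lay 99 bases before the start of Saa3 (chr7:46715677-46715926, minus strand) and 55 bases before that of Lep (chr6:29059971-29060220, plus strand). Over windows of 250 bases before to 50 after the start, the ISRE letters were present in 3.99% of 27025 genes with a promoter sequence and the C/EBP letters in 12.2%. These matches are a description of the letters and say nothing of binding in this tissue.

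Pepd itself (ENSMUSG00000063931, chromosome 7, 34912379 to 35044708 on the plus strand of GRCm38) was measured at 14.2, 25.1, 33.6, 6.71 and 9.34 CPM in KO libraries 1 to 5, an order kept for every list of KO values below. HET libraries had a lowest value of 45.7, a median of 57.5 and a highest of 69.1 CPM, and the 4 WT libraries had 59.1, 101, 86.1 and 88.7 CPM. All 5 KO libraries lay below all 8 HET libraries, as the labels would have it, with a log2 fold change of -1.69 ± 0.25 (SE; edgeR quasi-likelihood, adjusted p = 5.2e-06). The residual level was uneven, at 14.2 to 33.6 CPM in KO mice numbered under 450 and at 6.71 and 9.34 CPM in those above. Within the runs the log2 fold change was -1.25 under 450 (adjusted p = 0.064) and -2.86 above 450, and the difference between the runs passed the test (edgeR, adjusted p = 0.0095). In the liver of the same mice Pepd stood at 2.18, 0.581, 3.01 and 0.472 CPM in KO 2, 3, 4 and 5, against 19.8 to 24.9 CPM in HET mice. KO 3, which had the most Pepd of the KO fat libraries, thus had 0.581 CPM in liver, and the liver of KO 1 was not analysed here. Prep, a prolyl oligopeptidase, was -0.45 ± 0.09 on the log2 scale (edgeR, adjusted p = 0.00053), while the proline-cleaving proteases Dpp4 (-0.05, edgeR adjusted p = 0.92) and Fap (-0.58, edgeR adjusted p = 0.055; 0.042 by DESeq2) did not pass.

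**Figure D1:**
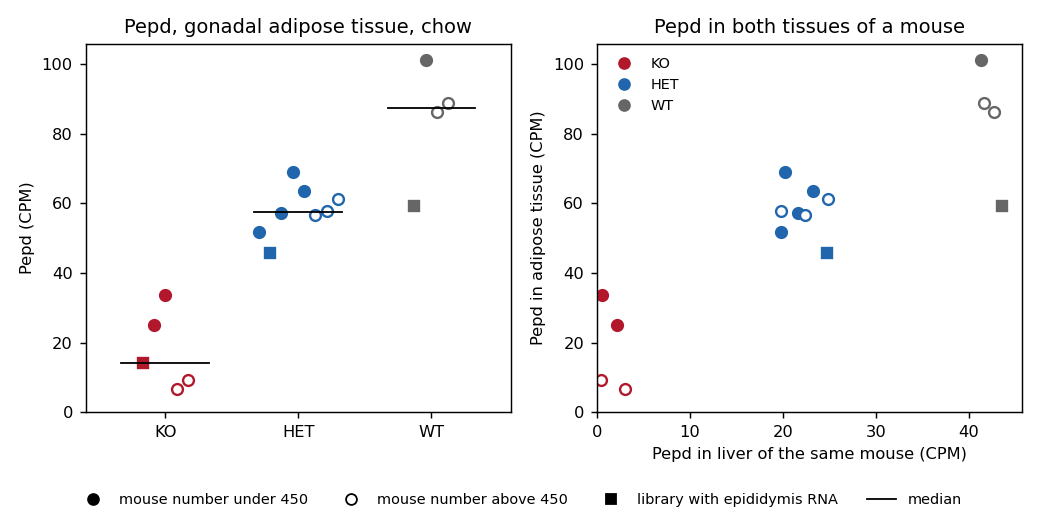
Pepd in CPM by library for KO, HET and WT gonadal fat on chow (left), and the fat value of each mouse against its liver value, both in CPM (right). Points are mice, filled for numbers under 450 and open above, squares for libraries with epididymis RNA; all 5 KO points, at 6.71 to 33.6 CPM in fat, sit below the lowest HET point of 45.7 CPM.

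Gene expression in KO fat departed widely from that in HET fat. Of 14536 genes tested, 4711 passed at an adjusted p under 0.05 (32.4%; edgeR quasi-likelihood over all gonadal groups), 2616 of them higher in KO (18%) and 2095 lower (14.4%). The median log2 fold change of all genes was 0.0081. Without KO 1 and HET 2, 4418 of 14304 genes passed (30.9%), 2605 higher and 1813 lower, and 3998 genes were called in both fits with 713 called only with all libraries. Genes in which all 5 KO libraries lay above all 8 HET libraries numbered 52 (0.358%), and 59 (0.406%) had all 5 below. The number called fell to 2489 without KO 4 and to 3088 without KO 5, rose to 6093 without KO 3, and was 1515 (1091 higher, 424 lower) when only the 13 KO and HET libraries were fitted.

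KO 4 and KO 5, the mice numbered above 450, were set against HET 6, 7 and 8. Within that run 6081 of 15322 genes passed (39.7%), 3192 higher and 2889 lower. Within the run under 450, 0 genes passed by edgeR, with 1681 genes at an unadjusted p under 0.05 and 422 once KO 1 and HET 2 were left out. The KO effect differed between the runs for 2015 genes (13.2%), 1007 higher above 450 (6.57%) and 1008 lower (6.58%). HET libraries of the separate runs differed in 0 genes by edgeR (1100 at an unadjusted p under 0.05), whereas KO libraries differed in 3671 (24%). Of the 4711 called genes, 4661 had the same sign under 450. The libraries under 450 were part of the fit that called these genes, so this is no separate evidence. The per-library values of KO mice are given below for the leading gene or genes of most groups.

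Acute-phase genes were higher in KO fat. Saa3, the serum amyloid A made by inflamed fat and macrophages, was measured at 693, 1510, 11.4, 6540 and 11300 CPM in KO libraries, against a lowest of 6.1, a median of 21.7 and a highest of 209 CPM in HET libraries. 4 KO libraries lay above every HET library and KO 3 lay among them, with a log2 fold change of 6.50 ± 0.85 (adjusted p = 1.8e-06, edgeR). C3, the central complement component, had 6820, 3500, 1770, 10500 and 18600 CPM in KO libraries, against 940 to 2640 CPM (median 1730) in HET libraries, and was 2.17 ± 0.30 on the log2 scale. Cd14, the co-receptor for bacterial lipopolysaccharide, rose by 1.91 (log2). Of 16 acute-phase genes tested, 9 rose and 3 fell (Lbp, Orm1 and Orm2), with a median log2 fold change of 1.4 beside 0.0081 for all genes, of which 18% rose and 14.4% fell. Of the 8 called members of that list with a promoter sequence 7 held the C/EBP letters, a share of 87.5% beside 12.2% of all promoters. Among all 11 tested members with a promoter sequence 8 held them (72.7%), called or not.

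Neutrophil genes were higher in the same 4 KO libraries. S100a9, a calcium-binding protein abundant in neutrophils, was measured at 8.94, 13.2, 0.653, 209 and 241 CPM in KO libraries, against 0.561 to 2.36 CPM (median 0.692) in HET libraries, a log2 fold change of 6.62 ± 0.71 (adjusted p = 1.3e-07, edgeR). Csf3r, the receptor for granulocyte colony-stimulating factor, rose by 3.28 on the log2 scale. In all, 7 of 8 tested neutrophil genes rose and 0 fell, with a median of 3.32 (1.21 under 450 and 5.52 above 450). Summed over the whole list they reached 354.5, 396, 69.9, 1240 and 2280 CPM in KO libraries, against 34.2 to 320 CPM in HET libraries. HET 2, with epididymis RNA, held the highest HET sum of 320 CPM. Erythroid cells, a sign of blood in the tissue, summed to 279, 1620, 1720, 321 and 742 CPM in KO libraries, against 722 to 2840 CPM in HET libraries, and 0 of 4 genes passed by edgeR (unadjusted, 1 had a p under 0.05, and DESeq2 called 0). The part of blood in these results was not tested. In bulk tissue a change in the share of a cell type and a change in RNA per cell cannot be told apart, here and for each cell type below.

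Macrophage genes rose broadly. Aif1, a cytoskeletal protein of macrophages, was measured at 56.4, 78.3, 8.98, 150 and 162 CPM in KO libraries, against 9.67 to 22.4 CPM (median 12.4) in HET libraries, 2.60 ± 0.39 on the log2 scale (edgeR, adjusted p = 5.5e-06). KO 3 was below every HET library and the other 4 KO libraries were above them all. Of 23 macrophage genes tested 22 rose and 0 fell (median 1.65, with 0.87 under 450 and 2.46 above 450), among them the fractalkine receptor Cx3cr1 (2.5) and the C-type lectin Clec4n (2.48). KO 3 lay within the HET range of the summed list, which stood at 7050, 5660, 3530, 9810 and 20100 CPM in KO libraries, against 1450 to 5220 CPM in HET libraries. Of 14 genes of resident macrophages 6 rose, with F13a1, a coagulation factor subunit, above all HET libraries in all 5 KO libraries (0.86). Fcna, a ficolin that binds microbial sugars, had 203, 126, 104, 130 and 319 CPM in KO libraries, against 46.4 to 119 CPM (median 59.2) in HET libraries. Fcna was 1.38 ± 0.23 on the log2 scale, with 4 of the 5 KO libraries above the HET range. Of 14 genes of lipid-associated macrophages 2 were higher and 2 lower, close to the shares of all genes (18% higher and 14.4% lower). Spp1, osteopontin, rose by 2.47 and Fabp5, a fatty acid carrier also made by adipocytes, fell by 0.68 on the log2 scale. The Fabp5 call was lost when only KO and HET libraries were fitted (adjusted p = 0.11, edgeR) and without any 1 of KO 1, KO 4, KO 5 and HET 5, and the Spp1 call without KO 5 (adjusted p = 0.13, edgeR).

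Cytokine genes were higher as well. Among 21 cytokine and chemokine genes 14 rose and 1 fell, the eosinophil chemokine Ccl11, with a median log2 fold change of 1.42. Il1b, which encodes interleukin-1β, was measured at 7.99, 8.43, 0.49, 69.6 and 82.8 CPM in KO libraries, against 0.695 to 2.23 CPM (median 1.72) in HET libraries, 4.43 ± 0.57 on the log2 scale (edgeR, adjusted p = 1.6e-06). The alarmin Il33 had 47.6, 30.7, 11.9, 181 and 168 CPM in KO libraries, against 6.98 to 22.8 CPM (median 13.8) in HET libraries. In Il1b KO 3 lay below the HET range and in Il33 it lay within it, with the other 4 KO libraries above in both. Cxcl1, a neutrophil attractant, and Acod1, which makes itaconate in activated macrophages, rose by 3.22 and 5.54 on the log2 scale.

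Lymphocyte genes were higher in KO fat. All 18 tested B cell genes rose, with a median log2 fold change of 4.06 (2.84 under 450 and 5.12 above 450), and their sum was 7230, 3500, 2460, 19900 and 8340 CPM in KO libraries, against 1380 to 3470 CPM in HET libraries. Cd22, an inhibitory co-receptor of B cells, was measured at 140, 70.4, 6.7, 432 and 150 CPM in KO libraries, against 4.13 to 11.6 CPM (median 8.92) in HET libraries, 4.23 ± 0.58 on the log2 scale (adjusted p = 2.4e-06, edgeR). Fcrl1, an Fc receptor-like protein, and Cd37, a tetraspanin, rose by 4.29 and 2.40, and the chemokine receptors Ccr6 and Ccr7 by 5.49 and 2.31. Again 4 KO libraries exceeded every HET library for Cd22, and KO 3 did not.

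Of 11 plasma cell genes 7 rose and 0 fell (median 1.95). Igha, the heavy chain of immunoglobulin A, had 1150, 21.8, 48.3, 745 and 569.2 CPM in KO libraries, against 11.2 to 47.1 CPM (median 21.4) in HET libraries, 4.29 ± 0.68 on the log2 scale. KO 2 lay within the HET range of Igha and KO 3 just above it. Jchain, which links immunoglobulin polymers, was above all HET libraries in all 5 KO libraries (3.30), and Mzb1, a chaperone of antibody secretion, rose by 3.72. The plasma cell sum was 5970, 1480, 836, 17900 and 6470 CPM in KO libraries, against 239 to 1010 CPM in HET libraries. Among genes called both with and without KO 1 and HET 2 that had a mean of at least 1 CPM in a group, immunoglobulin genes made up 7 of the 12 highest fold changes, among them Ighg1 and Igkv6-20, but reads of near-identical copies may be split, so their single values are uncertain. Ighg1 had a KO mean of 1359 CPM with an SD of 2724 CPM. In Ighg1 and in Igkv6-20, 3 KO libraries lay above every HET library.

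Of 25 T and natural killer cell genes 15 rose and 0 fell (median 1.22), and 9 rose without KO 1 and HET 2, with a sum of 97.2 to 405 CPM in KO libraries and 65 to 264 CPM in HET libraries. Cd2, an adhesion receptor of T cells, Lck, the kinase of the T cell receptor, and Cd4, the helper T cell co-receptor, changed by 1.88, 1.63 and 1.87 on the log2 scale. Of 12 mast cell and eosinophil genes 3 rose and 0 fell, including Siglecf (2.70), a lectin of eosinophils and some macrophages, beside 18% higher among all genes. The median log2 fold change of these 12 genes was -0.235, and 2 rose without KO 1 and HET 2. The Cd4 call was lost without KO 4 and the Siglecf call without KO 5 (edgeR, adjusted p = 0.061 and 0.61). Of 9 dendritic cell genes 1 rose, Ccr7, beside 18% higher among all genes.

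**Figure D2:**
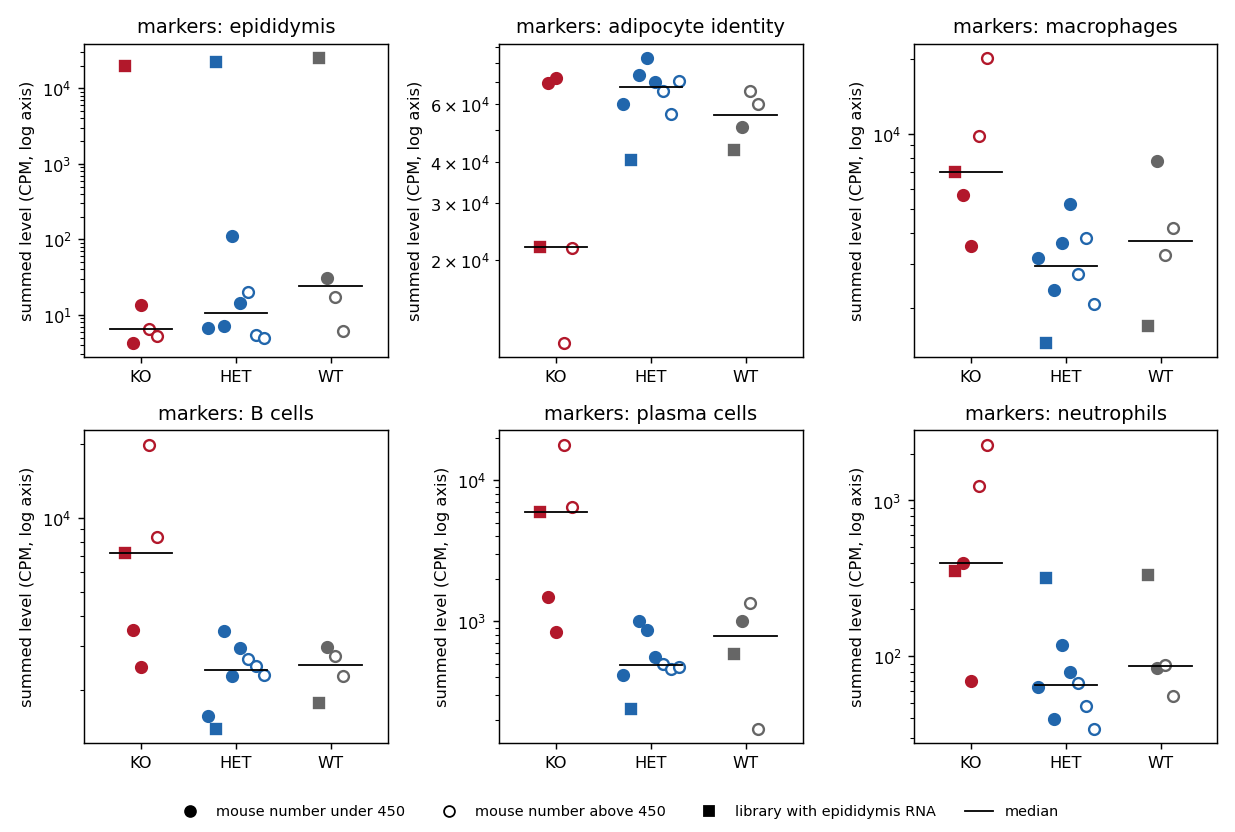
Summed CPM of cell type gene sets by library (log axes), for KO, HET and WT gonadal fat on chow. Points are mice, filled for numbers under 450 and open above, squares for libraries with epididymis RNA; neutrophil sums reach 2280 CPM in KO and 320 CPM in HET, and adipocyte sums fall to 11200 CPM in KO while no HET library is below 40500 CPM.

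Genes of antigen presentation were higher. All 10 tested class II genes and all 12 class I genes rose, with median log2 fold changes of 1.94 for class II and 1.4 for class I. H2-DMb2, which loads peptide on class II molecules, was measured at 54.5, 30.7, 7.35, 234 and 83.9 CPM in KO libraries, against 3.69 to 11.6 CPM (median 9.07) in HET libraries. H2-Ob and H2-Oa, whose products modulate that loading and are typical of B cells, rose by 3.9 and 3.83. Tap1, a peptide transporter for class I, had 180, 168, 68.3, 315 and 418 CPM in KO libraries, against 32.7 to 99.6 CPM (median 60.4) in HET libraries, 1.85 ± 0.26 on the log2 scale (edgeR, adjusted p = 3.6e-06). H2-Q7, a class I molecule, and Psmb9, an immunoproteasome subunit, rose by 1.92 and 1.76. H2 genes have near-identical copies and their single values are uncertain.

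Of 25 interferon-stimulated genes 23 rose and 1 fell (Ifi27), with a median of 1.18. Oasl2, an oligoadenylate synthetase-like protein, was measured at 138, 89.1, 33.5, 156 and 239 CPM in KO libraries, against 23 to 50.4 CPM (median 31.7) in HET libraries, 1.95 ± 0.24 on the log2 scale (adjusted p = 8.7e-07, edgeR). Stat2 and the nucleic acid sensor Zbp1 rose by 1.19 and 2.85. The 2 genes with repeated ISRE matches shown above, Isg15 and Ifit1, rose by 1.5 ± 0.23 and 1.14 ± 0.26. The ISRE letters were in 10 of 17 called interferon-stimulated genes that have a promoter sequence (58.8%) and in 1 of 10 class I genes (10%), beside 3.81% of promoters of all tested genes. Among all tested interferon-stimulated genes with a promoter the share was 11 of 18 (61.1%), so it describes the list and not the calls.

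Adipocyte genes were lower. Of 19 adipocyte identity genes 9 fell and 0 rose, with a median log2 fold change of -0.92, -0.33 under 450 and -2.40 above 450. Pparg, the nuclear receptor that drives adipocyte differentiation, was measured at 121, 235, 277, 48.2 and 77.6 CPM in KO libraries, against 211 to 408 CPM (median 349) in HET libraries, -1.13 ± 0.26 on the log2 scale (adjusted p = 0.0012, edgeR). Lpl, the lipoprotein lipase that frees fatty acids for uptake, had 3070, 5700, 10000, 740 and 1390 CPM in KO libraries, against 6330 to 13500 CPM (median 11600) in HET libraries, -1.40 ± 0.32. KO 1, 4 and 5 were below the HET range for Pparg, and KO 2 joined them for Lpl. Cebpa, a factor that acts with Pparg and also a neighbour of Pepd on chromosome 7, changed by -0.98. Adipoq, adiponectin, which was chosen after its values were seen, did not pass at -0.65 ± 0.34 (adjusted p = 0.13, edgeR). The summed adipocyte identity list stood at 22000, 69600, 72200, 11200 and 21800 CPM in KO libraries, so the KO libraries with the lowest adipocyte sums (4, 5 and 1) were those with the highest macrophage and B cell sums, and the part of one in the other was not tested. Fitted on KO and HET libraries alone, Pparg, Cebpa and Lpl no longer passed (adjusted p = 0.056, 0.074 and 0.092, edgeR).

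Genes of fatty acid and triglyceride synthesis were lower. Of 19 tested 12 fell and 0 rose, with a median of -1.09 (-0.51 under 450 and -2.49 above 450), and their sum was 15100, 19400, 35400, 3760 and 6880 CPM in KO libraries, against 34200 to 61200 CPM in HET libraries. Fasn, fatty acid synthase, was measured at 1150, 2240, 3580, 288 and 671 CPM in KO libraries, against 2940 to 13600 CPM (median 6940) in HET libraries, -2.23 ± 0.42 on the log2 scale (edgeR, adjusted p = 0.00012). All KO libraries but KO 3 lay below the HET range. Acaca, which makes malonyl-CoA, and Scd2, a fatty acid desaturase, changed by -1.25 and -1.68. Cholesterol synthesis followed, with 9 of 18 genes lower and 0 higher (median -0.77), among them Insig1, a sterol sensor (-1.29), Lss, lanosterol synthase (-0.95), and Pmvk, phosphomevalonate kinase (-0.91). A sterol element, TCACNCCAC, was in 1 of 8 called cholesterol genes with a promoter (12.5%) and 1 of 9 called fat synthesis genes (11.1%), beside 1.44% of all promoters. Among all tested members with a promoter it was in 1 of 11 (9.09%) and 1 of 14 (7.14%).

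Lipid storage, oxidation and secreted products were lower in part, beside 14.4% lower among all genes. Of 12 lipid droplet genes 5 fell (3 without KO 1 and HET 2), including the droplet coat proteins Plin1 (-1.04) and Plin3 (-0.34) and seipin, Bscl2 (-0.60). Of 17 lipolysis genes 6 fell and 2 rose: the natriuretic peptide clearance receptor Npr3 changed by -1.62, while the adrenergic receptor Adra2a rose by 1.74. Of 19 fatty acid oxidation genes 5 fell, among them Acads (-0.70) and Hadha (-0.39). Without KO 1 and HET 2, 0 of these 19 passed by edgeR (6 at an unadjusted p under 0.05). Of 24 respiratory chain genes 12 fell with a median of -0.39, among them Ndufs1 of complex I (-0.51) and Atp5a1 of ATP synthase (-0.46), and 4 fell without KO 1 and HET 2. Thermogenic genes fell in 5 of 13 cases. Dio2, which activates thyroid hormone, and the potassium channel Kcnk3 changed by -2.24 and -1.57. Dio2 rested on HET 5, without which it was -1.36 and did not pass (adjusted p = 0.081, edgeR).

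Of 16 adipokine genes 6 fell and 0 rose (4 fell without KO 1 and HET 2). Among all genes 14.4% fell and 18% rose, shares that also stand beside the insulin signalling counts below. Lep, leptin, was measured at 554.4, 1210, 2740, 67.7 and 92.5 CPM in KO libraries, against 1750 to 5390 CPM (median 3260) in HET libraries, -1.86 ± 0.51 on the log2 scale (adjusted p = 0.0048, edgeR). KO 3 again lay within the HET range and the other 4 KO libraries below it. Serpina3c, a protease inhibitor, and Vegfa, the vascular growth factor, changed by -1.09 and -0.72. In insulin signalling 7 of 16 genes fell and 1 rose, Ptpn1, the phosphatase that acts on the insulin receptor (1.07), with Pik3cb and Grb14 at -0.59 and -1.49. With KO 4 or KO 5 left out, Vegfa, Acads, Hadha, Ndufs1 and Atp5a1 did not pass. With KO 1 left out, Vegfa, Acads, Hadha and Bscl2 did not pass, nor did Bscl2 without KO 4 or Hadha without HET 5. With only KO and HET libraries fitted, Lep (adjusted p = 0.11), Plin1, Bscl2, Npr3, Serpina3c, Vegfa, Acads, Hadha, Ndufs1, Atp5a1, Kcnk3, Dio2, Pik3cb and Grb14 did not pass by edgeR. Without KO 1 and HET 2, Bscl2, Acads and Hadha did not pass (edgeR, adjusted p = 0.0502, 0.062 and 0.068).

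**Figure D3:**
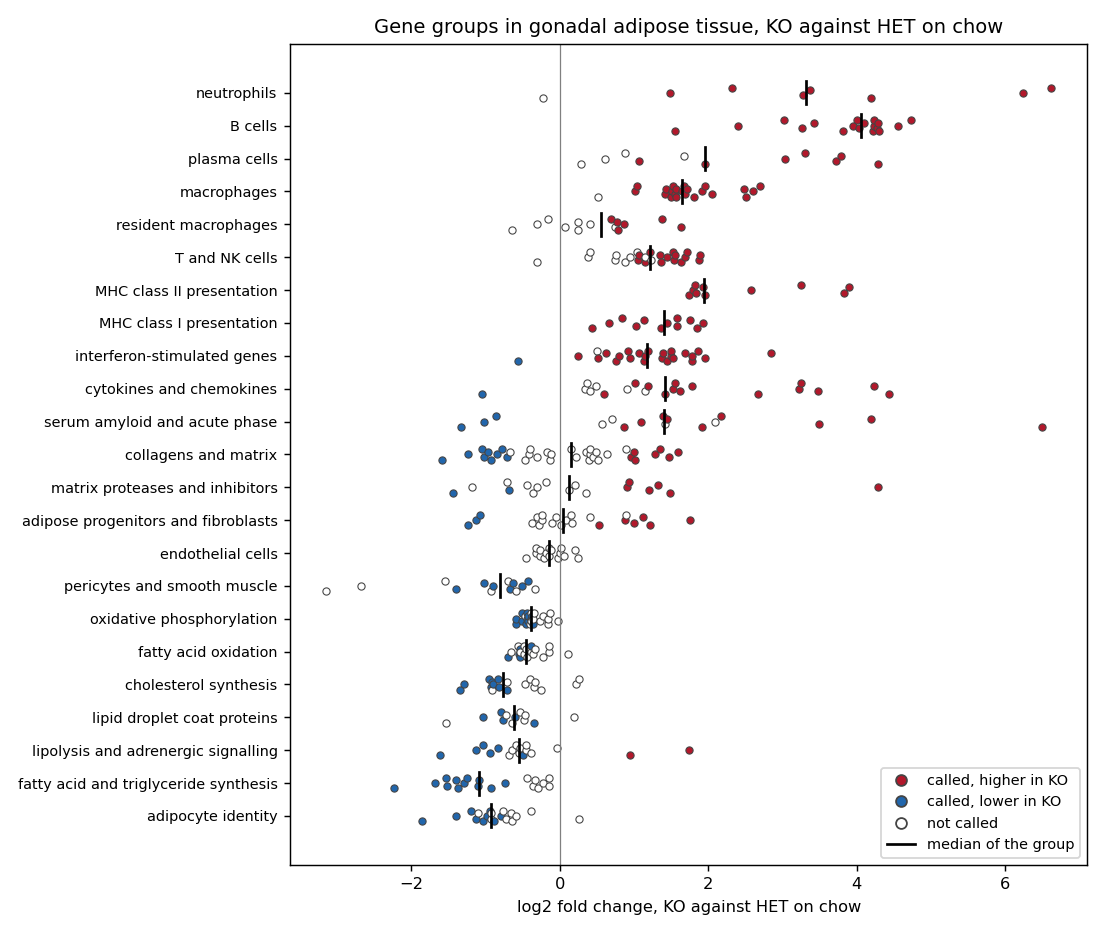
Log2 fold change, KO over HET on chow, of the members of the gene groups, each point a gene, filled in red where higher and in blue where lower past the threshold and open where not, with a bar at the group's median. B cell genes have a median of 4.06 and fat synthesis genes one of -1.09.

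Collagen and matrix genes, some of whose products yield substrates of prolidase, moved in both directions. Among all genes 18% rose and 14.4% fell. Of 35 collagen and matrix genes 7 rose (Fn1, Tgfbi, Col1a2, Col3a1, Bgn, Col1a1 and Tnc) and 9 fell (Col5a3, Col15a1, Col18a1, Col4a1, Col4a2, Col6a1, Col6a2, Col6a3 and Sparc), with a median of 0.16. Col5a3, a chain of type V collagen made by adipocytes, was measured at 226, 371, 869, 289 and 304 CPM in KO libraries, against 736 to 1630 CPM (median 1470) in HET libraries, -1.59 ± 0.26 on the log2 scale (edgeR, adjusted p = 2.2e-05). Fn1, fibronectin, had 1690, 756, 754, 3640 and 5070 CPM in KO libraries, against 437 to 1270 CPM (median 707) in HET libraries, 1.59 ± 0.31. KO 3 was the KO library within the HET range of Col5a3, and KO 1, 4 and 5 were above that of Fn1. The members that fell include the basement membrane collagens and the type VI collagens, and those that rose include both chains of type I collagen. The median of the group was -0.15 under 450 and 0.33 above 450. The KO effect was higher above 450 for 6 of its genes and lower for 0. Summed over the list, levels were 13100, 14100, 22400, 29300 and 41400 CPM in KO libraries, against 13500 to 33600 CPM in HET libraries. Col24a1, a minor fibrillar collagen, had the highest fold change of any collagen gene named, at 14.1, 3.8, 0, 378 and 86 CPM in KO libraries, against 0 to 6.9 CPM (median 0.266) in HET libraries (6.38 ± 1.07). Its KO values were spread widely, with 378 CPM in KO 4 alone.

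Enzymes that modify or cut matrix went both ways too, beside 18% higher and 14.4% lower among all genes. Of 20 collagen-modifying genes 5 rose and 4 fell, with the lysyl hydroxylase Plod2 (1.48) and P3h4 (1.09) higher and the procollagen enhancer Pcolce2 (-1.89) lower. Of 17 matrix protease genes 6 rose and 2 fell. Mmp3, stromelysin, was measured at 4.34, 3.47, 0.817, 117 and 61.9 CPM in KO libraries, against 0.695 to 3.88 CPM (median 1.31) in HET libraries, 4.28 ± 0.76 on the log2 scale (adjusted p = 6.0e-05, edgeR), with KO 1, 4 and 5 above the HET range, and Mmp23 and the aggrecanase Adamts5 changed by 0.90 and -1.44. Cathepsins, lysosomal proteases, rose in 5 and fell in 2 of 17 cases, with Ctss, Ctsc and Ctsh, which immune cells make, at 1.95, 1.31 and 1.37.

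Proline is a product of prolidase and is also made by the cell. Of 12 genes of proline synthesis and breakdown 3 rose and 0 fell (2 rose without KO 1 and HET 2), beside 18% higher and 14.4% lower among all genes. Pycr1, which makes the last step to proline, was measured at 9.48, 6.28, 7.02, 13.2 and 13.6 CPM in KO libraries, against 3.49 to 7.29 CPM (median 4.8) in HET libraries, 0.92 ± 0.20 on the log2 scale (edgeR, adjusted p = 0.00076). The amino acid carrier Slc38a2 and Aldh18a1, which makes the first committed step, changed by 0.63 and 0.47. Both lost the call when only KO and HET libraries were fitted. The Aldh18a1 call was also lost without KO 1 and HET 2, without any 1 of KO 1, 4 and 5 and HET 3, 4, 5, 6 and 8, under the replicate block and with the run as a covariate. Of 15 proline-cleaving peptidases 2 rose and 3 fell, 1 of them Pepd, which also lies close to the shares of all genes. KO 1, 4 and 5 lay above the HET range of Pycr1. Of 21 genes next to Pepd on chromosome 7, 4 fell and 1 rose. Kctd15, a nearby gene of a BTB domain protein, was measured at 13.8, 18.3, 23.5, 12 and 11.5 CPM in KO libraries, against 25.8 to 41.2 CPM (median 30.4) in HET libraries, with all 5 KO libraries below (-1.01 ± 0.19). Chst8, another neighbour, changed by -1.29, and Cebpa, given above among the adipocyte genes, is also a neighbour that fell. The part of their place near Pepd in these values was not tested.

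Stromal cell genes had no common direction, and among all genes 18% rose and 14.4% fell. Of 22 genes of progenitors and fibroblasts 6 rose and 3 fell, with the adhesion molecule Icam1 (1.75) and Ly6a, the Sca-1 antigen (1.21), higher and Col15a1 (-1.23) lower. Of 14 pericyte and smooth muscle genes 7 fell and 0 rose (median -0.80; 4 fell without KO 1 and HET 2, median -0.56), among them Cspg4, the NG2 proteoglycan (-1.02), and Notch3 (-0.51). Their sum was 969 to 2720 CPM in KO libraries, against 5470 CPM in HET 2 and 1790 to 3510 CPM in the other HET libraries. Of 16 endothelial genes 0 passed by edgeR (unadjusted, 1 had a p under 0.05, and DESeq2 called 0), and Kdr, the main receptor for Vegfa, was -0.46 on the log2 scale (edgeR, adjusted p = 0.082), though it passed without KO 2, KO 3 or HET 2 (adjusted p = 0.015 to 0.049, edgeR). Of 15 mesothelial genes 1 rose and 1 fell. Wt1, the mesothelial transcription factor, was measured at 30.8, 29.1, 21.2, 139 and 81.3 CPM in KO libraries, against 6.41 to 30.5 CPM (median 19.5) in HET libraries, 1.63 ± 0.33 (adjusted p = 0.00027, edgeR). KO 1, 4 and 5 were above the HET range and KO 2 and 3 within it. Efemp1, the member that fell, did so by 0.56 and lost the call with only KO and HET libraries, without any 1 of KO 1, 2, 4 and 5 and HET 3, 6, 7 and 8, under the replicate block and with the run as a covariate.

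The 12 lowest fold changes were sought among genes called both with and without KO 1 and HET 2. Predicted genes, pseudogenes and genes under a mean of 1 CPM in both genotypes were left out. The 12 were Ncan, Fgf13, Grid1, Otop1, Mrgprg, Cck, Hephl1, Mstn, Tph2, Bpifb6, Plppr4 and Dio2. Cck (HET mean 4.94 CPM, SD 12.26) and Mstn (HET mean 1.099 CPM) each had 0 KO libraries below all HET libraries. Ncan, the proteoglycan neurocan, was measured at 2.03, 1.65, 7.68, 0.629 and 0.353 CPM in KO libraries, against 2.87 to 34.1 CPM (median 14.6) in HET libraries, -2.75 ± 0.50 on the log2 scale (edgeR, adjusted p = 8.3e-05). Fgf13, an intracellular relative of fibroblast growth factors, had 4.88, 7.44, 35.4, 1.89 and 0.705 CPM in KO libraries, against 18.1 to 96.5 CPM (median 45.2) in HET libraries, -2.35 ± 0.50. KO 3 stood in the HET range in both and the other 4 KO libraries stood below it. The glutamate receptor-like gene Grid1 and the proton channel Otop1 changed by -2.40 and -2.36. Fgf13, Grid1 and Otop1 did not pass with only KO and HET libraries fitted. Klhl33, a kelch-like gene, had 2.44, 1.98, 4.41, 1.89 and 1.94 CPM in KO libraries, against 5.14 to 11.7 CPM (median 8.17) in HET libraries, with no overlap (-1.68 ± 0.26).

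**Figure D4:**
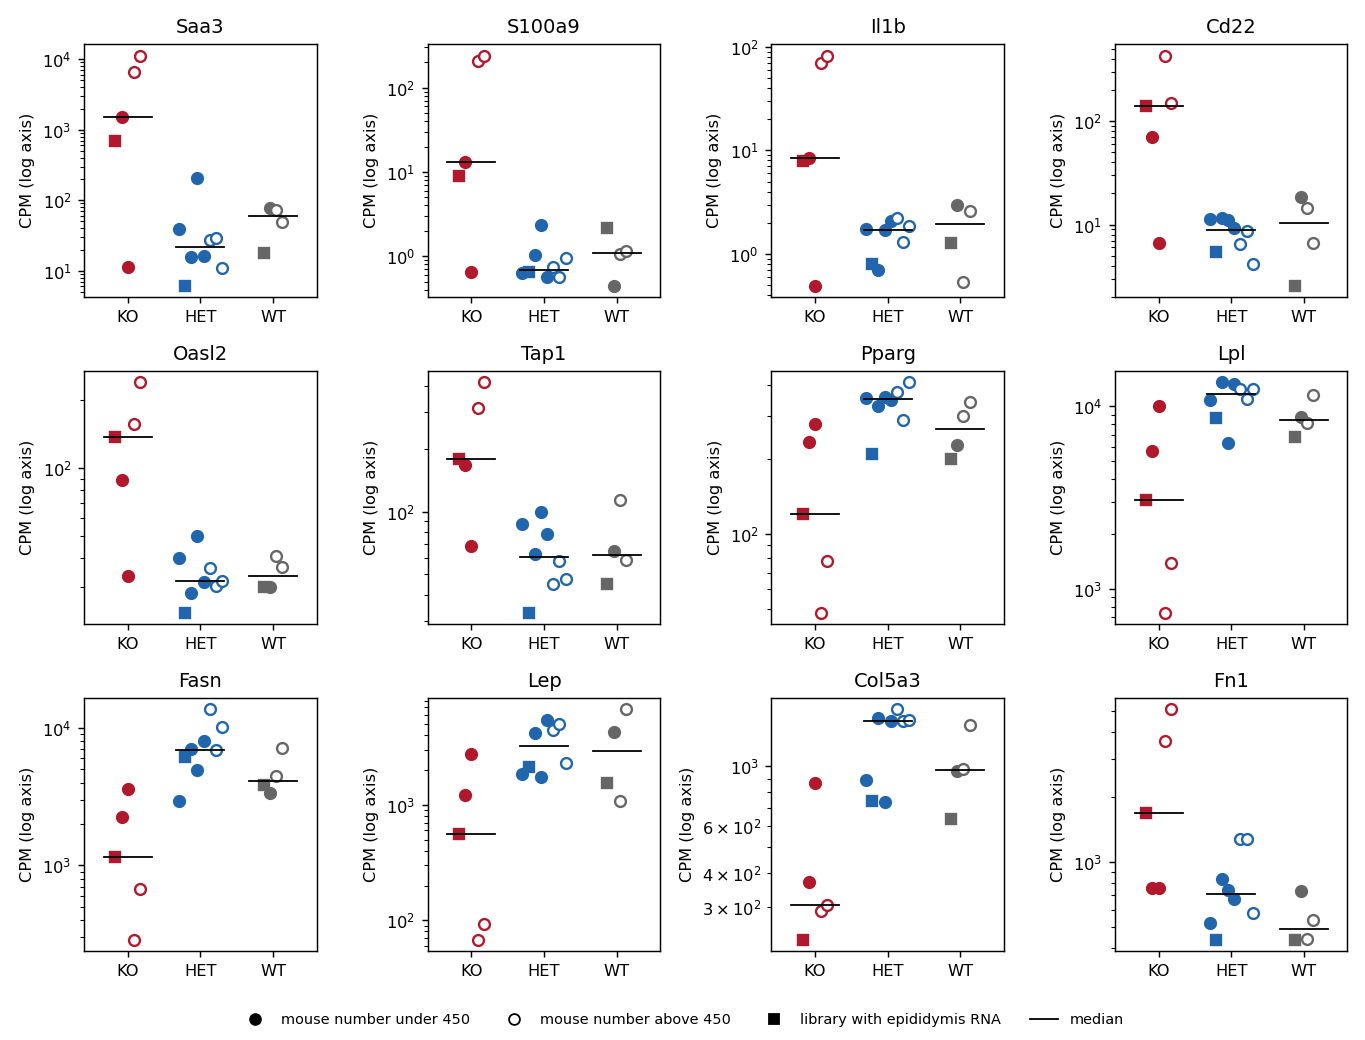
CPM by library (log axes) of genes named in the text, for KO, HET and WT gonadal fat on chow. Points are mice, filled for numbers under 450 and open above, squares for libraries with epididymis RNA; Saa3 reaches 11300 CPM in KO against at most 209 CPM in HET, and KO 3 has 11.4 CPM of Saa3.

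Genes of stress responses and of the clock were examined next. Of 21 genes of the unfolded protein response 7 rose and 2 fell, with Creld2 and Xbp1, a factor of secretory cells, at 1.41 and 0.42. Of 17 genes in the p53 list 7 fell, among them the cell cycle inhibitor Cdkn1a (-1.13) and Phlda3 (-1.29), and 1 rose, Trp53 itself (0.37). Of 18 NRF2 targets 1 rose, glutathione reductase Gsr (0.54), and 2 fell, including malic enzyme Me1 (-1.52). Among 17 clock genes 5 fell and 1 rose, with Nr1d1 and Cry2, both repressors of the clock, at -1.08 and -0.68 and Nfil3 at 1.26. Xbp1, Cdkn1a, Gsr, Me1, Nr1d1, Cry2 and Nfil3 did not pass with only KO and HET libraries fitted, and Nr1d1, Cry2, Gsr and Nfil3 also not without KO 5, nor Nr1d1 and Cry2 without KO 4. Of 20 cell cycle genes 3 rose and 1 fell, and of 10 genes of the EGF family, whose receptors prolidase can bind, 1 rose and 3 fell, without KO 1 and HET 2 0 and 2 of 9. Over all genes 18% rose and 14.4% fell, and the EGF family sum was highest, within its genotype, in the libraries with epididymis RNA, KO 1 and HET 2 (431 CPM in HET 2).

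The 2 libraries with epididymis RNA changed the call of some genes and the direction of 1 named gene. Ltf, lactoferrin, which epididymis and neutrophils both make, was -0.23 on the log2 scale with all libraries (adjusted p = 0.92, edgeR) and was called higher without KO 1 and HET 2 (edgeR, adjusted p = 0.00049). The fold without those libraries cannot be estimated, since the other 7 HET libraries held 3 Ltf reads in all. Its levels were 40.4, 0, 0.327, 69.2 and 13.6 CPM in KO libraries, against 0 to 230 CPM (median 0) in HET libraries, the highest of them in HET 2. The neutrophil chemokine Cxcl5 passed with all libraries, at 2.84, 1.65, 0, 39.4 and 46.2 CPM in KO libraries, against at most 0.506 CPM in HET libraries. Its receptor Cxcr2 also passed, at 3.12, 2.31, 0, 6.92 and 54.1 CPM in KO libraries, against at most 0.372 CPM in HET libraries. Neither passed the filter on low counts in the fit without those 2 libraries. The actin-binding Cald1 (-0.79) and the RNA-binding Samd4 (-0.55) lost their calls (adjusted p = 0.067 and 0.081, edgeR), while Gca, Oxr1 and Unc5b did not pass with all libraries and were called lower without those 2 (edgeR, adjusted p = 0.00068, 0.0012 and 0.0014) and without KO 1 alone. Oxr1 also passed without HET 2, HET 4 or KO 3 and under the replicate block. Gene groups were counted again: without KO 1 and HET 2, 7 of 7 neutrophil genes rose and 0 fell, 18 of 18 B cell genes rose and 0 fell, 21 of 23 macrophage genes rose and 0 fell, and 0 of 19 fatty acid and triglyceride synthesis genes rose and 10 fell. Counts that moved by more than 1.5 times were those of T and NK cells (9 higher, against 15 with all libraries), fatty acid oxidation (0 lower, against 5), oxidative phosphorylation (4 lower, against 12), pericytes and smooth muscle (4 lower, against 7), lipid droplets (3 lower, against 5), lipid-associated macrophages (1 higher and 1 lower, against 2 and 2), testis (3 lower, against 0), and, in lists with 1 or 2 such calls, the lower calls of interferon-stimulated, stress response and muscle genes and the higher call of the EGF family.

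The KO effect was then set against that on HFD. On HFD, 2 of 14536 genes passed between KO and HET (0.0138%; 1130 at an unadjusted p under 0.05), 1 lower, Pepd at -1.29, and 1 higher, Fcna at 1.02 on the log2 scale (0.00688% each). The library labelled HET 3 on HFD had 21.8 CPM of Pepd, in the range of the HFD KO libraries (15.4 to 35.8 CPM) and below the other 10 HFD HET libraries (59.9 to 74 CPM). The difference between the KO effect on chow and that on HFD passed for 3849 genes (26.5%), 2081 higher on chow (14.3%) and 1768 lower (12.2%). Epididymis genes summed to 1463, 1214 and 5865 CPM in HFD HET libraries 3, 7 and 9, against at most 665 CPM in HFD KO libraries. Of 29 epididymis genes tested, 10 passed as higher in the diet difference and 0 as lower. Without all gonadal libraries over 1000 CPM of these genes, the diet difference passed for 2676 genes. Saa3 had a KO effect of -1.24 on HFD against 6.50 on chow, a difference of 7.74 (adjusted p = 1.9e-05, edgeR). The difference was 3.31 for Rhoh, a GTPase of lymphocytes, 2.73 for the leukocyte tetraspanin Tspan32, and 2.19 for Oasl2. It was -2.94 for Fasn, -1.84 for Klhl33, -1.03 for the myelin protein gene Pmp22, -0.91 for the linker histone Hist1h1c and -0.41 for Tollip, an inhibitor of Toll-like receptor signals. The Pepd effect itself did not pass as different between diets, at -0.41 ± 0.30 (adjusted p = 0.33, edgeR). The median HFD effect was -1.05 for B cell genes, 0.04 for macrophage genes and 0.12 for adipocyte identity genes, against 4.06, 1.65 and -0.92 on chow. With the chow mice limited to numbers under 450 and all HFD mice kept, the diet difference passed for 0 genes by edgeR (2214 at an unadjusted p under 0.05), and with the chow mice limited to numbers above 450 for 6136.

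**Figure D5:**
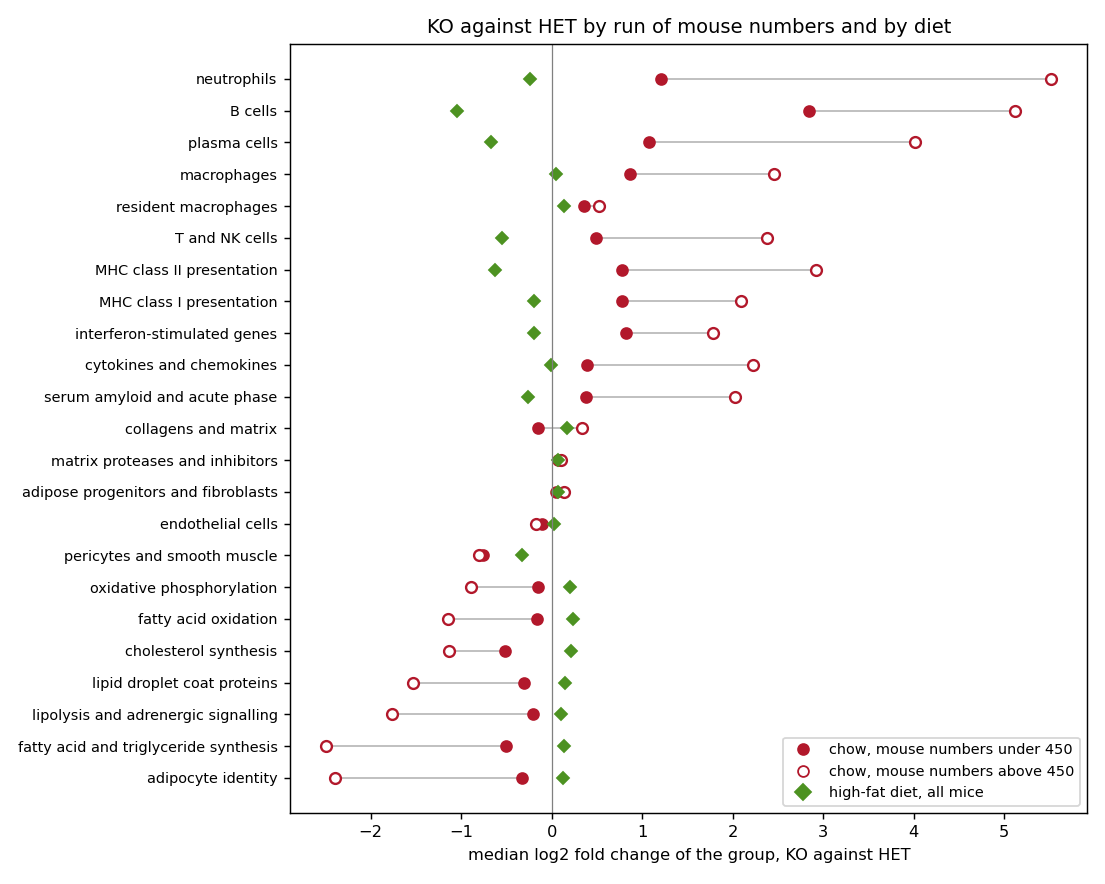
Median log2 fold change, KO over HET, of each gene group: on chow for mice numbered under 450 (filled) and above 450 (open), joined by a line, and on HFD (diamonds). Adipocyte identity genes are at -2.40 above 450, -0.33 under 450 and 0.12 on HFD.

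Chow WT libraries gave a further comparison, which shares the KO libraries with the one above. KO against WT passed for 2180 genes (15%), 1287 higher (8.85%) and 893 lower (6.14%), while HET against WT passed for 0 by edgeR (unadjusted, 623 had a p under 0.05, and DESeq2 called 12). WT library 2 also held epididymis RNA, at 25000 CPM summed over the list. Saa3 was 6.21 on the log2 scale in KO against WT (adjusted p = 0.00053, edgeR) with WT libraries at 17.8, 77.1, 72.5 and 48.4 CPM. Fasn was -1.56 (adjusted p = 0.017, edgeR), with WT libraries at 3830, 3330, 4430 and 7170 CPM. Cd22 was 3.92 (adjusted p = 0.00078, edgeR), with 2.55, 18.5, 14.3 and 6.56 CPM in WT libraries. Of the immunoglobulin genes among the highest fold changes, Ighg1 passed against WT (adjusted p = 0.015, edgeR). Igkv6-20 and the rest of them did not (adjusted p = 0.14 to 0.43, edgeR). The mean of Igkv6-20 was 57.05 CPM in KO, 0.638 CPM in HET and 7.82 CPM in WT libraries. The number called fell to 774 without KO 4, 1065 without KO 5 and 1250 without WT 5, and was 0 when only the KO and WT libraries on chow were fitted (edgeR; 1547 at an unadjusted p under 0.05). For HET against WT, 442 genes passed without HET 2, 439 of them lower in HET, with WT 2 and its epididymis RNA still included.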

How the data were processed

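RNA with an integrity number above 7 went into stranded mRNA libraries read as single ends, per the labels' protocols. The submitters' processing notes name STAR 2.5.1b, featureCounts 1.5 and GRCm38.p5, without settings. The values deposited by the authors are raw read counts per gene, for 25759 genes, of which 36 have no symbol in the GRCm38 annotation used. Reads of near-identical copies may be split. Chow WT library 1 has a label only and was not analysed here; 1 unlabelled column was left aside.

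Counts of all 45 gonadal libraries were fitted together in R 4.3.3 with edgeR 4.0.16 (expression filter with minimum count 10 and minimum total 15, TMM scaling, quasi-likelihood test, two-sided, Benjamini-Hochberg over all 14536 genes, threshold 0.05). CPM used TMM-scaled library sizes, and SE is the log2 fold change over the square root of F. Scripts were tested on simulated data. Values within runs of mouse numbers come from a fit with those runs as groups. DESeq2 1.42.0, other scalings and filters, left-out libraries, a replicate block and fits of fewer groups were alternatives. P-values rest on a spread between mice estimated over all 45 gonadal libraries, HFD and WT included, not among the chow KO mice alone. Fitting only KO and HET libraries on chow gave 1515 calls in place of 4711. All 38 within-group pairs of chow KO or HET libraries differed beyond sampling noise.

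Named genes were Pepd, Prep, Dpp4 and Fap, those with the highest and lowest fold changes among called genes, up to 3 leading genes of each list, those whose call changed without KO 1 and HET 2, and 5 each way for the diet difference; others are marked, and some genes under this rule are not reported here. Members and lists were chosen with earlier results of these data known. Promoters are RefSeq windows of 250 bases before to 50 after a gene's start.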

Additional observations from a re-analysis of the deposited data

Results flagged for a closer look

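Single libraries stood apart from the rest of their group in 13 of 72 groups of per-library values examined with Dixon's test at the 95% level. The chance rate of about 1 in 20 groups holds for normally spread values. These were unlogged CPM of genes partly picked for their fold change, so 13 cannot be judged against that rate. The epididymis sums of KO 1 and HET 2 were also known to be high beforehand. Among KO libraries, KO 3 was the high one for Col5a3 (869 CPM), Ncan (7.68 CPM), Fgf13 (35.4 CPM) and Klhl33 (4.41 CPM), genes that were low in the other 4. KO 4 was high for Col24a1 (378 CPM), and KO 1 for the epididymis sum (19500 CPM) and the testis sum (169 CPM). Among HET libraries, HET 4 was high for Saa3 (209 CPM) and S100a9 (2.36 CPM), and HET 2 for Col24a1 (6.9 CPM), the epididymis sum (22000 CPM), the testis sum (523 CPM) and the neutrophil sum (320 CPM).

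The KO effect differed between chow and HFD for 3849 genes and between the runs of mouse numbers for 2015 genes (edgeR quasi-likelihood, Benjamini-Hochberg). The difference between chow and HFD in log2 KO effect was 7.74 for Saa3, 3.31 for Rhoh, 2.73 for Tspan32 and 2.2 for Oasl2. It was -2.94 for Fasn, -1.84 for Klhl33, -1.03 for Pmp22, -0.91 for Hist1h1c and -0.41 for Tollip.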

How the results depend on the processing

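The KO against HET count of 4711 was 2778 at an adjusted p under 0.01, 1515 (72% higher, beside 55.5%) with only those groups fitted, and 2489 to 6093 with 1 library left out. It was 0 by edgeR for mice numbered under 450 (1583 at an unadjusted p under 0.05), and 0 with KO 1 and HET 2 also left out (395). DESeq2 (4921), RLE (4717), no filter (4593), a mean of at least 1 CPM (4699) and a covariate for the run (4768) stayed within 1.5 times. The diet difference of 3849 became 1832 at an adjusted p under 0.01, 0 with the chow mice limited to numbers under 450 (2214 at an unadjusted p under 0.05) and 0 without KO 1 and HET 2 as well (781), 6136 with them limited to numbers above 450, and 2093 to 5366 with 1 library left out; without the HFD library HET 3 it was 3433. KO against WT, 2180, became 788 at an adjusted p under 0.01 (76.1% higher, beside 59%), 0 with only those groups fitted (edgeR; 1547 at an unadjusted p under 0.05) and 774 to 4210 with 1 library left out. HET against WT, 0 by edgeR, was 12 by DESeq2, 1 without every library over 1000 CPM of epididymis genes, and 0 to 442 with 1 library left out. The cause of these moves was not tested, and neither was the part of the fewer samples in some fits.

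The replicate block gave 4386 calls (diet difference 3643, KO against WT 1532), and the same-number correlations of KO and HET deviations, -0.475 to 0.281, do not pair the samples; 1 of 5 numbers correlated best with itself. Of 122 named genes 114 were called. DESeq2 and RLE scaling ended 0 of these calls, fitting only KO and HET libraries ended 34 of 109, leaving out KO 1 and HET 2 ended 6 of 112, and leaving out 1 library ended 18. Dpp4, at -0.05, lay between -0.79 and 0.20 with 1 library left out. Ltf, at -0.23, was 7.73 without KO 1 and HET 2, -1.08 to 7.98 with 1 library left out, 4.53 under the block and 0.28 with the run as a covariate; where HET 2 is left out these are fitted values against HET libraries with 3 reads in all, set by the prior count, and no estimate of a fold. With 4236655 to 6583398 counts a library, genes below about 1 CPM rest on a few reads.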
